A study of Mus musculus with 10 samples.

Results

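The 6 genes described here encode the subunits of troponin in skeletal muscle: Tnnt1, Tnni1 and Tnnc1 of slow fibers, and Tnnt3, Tnni2 and Tnnc2 of fast fibers. They were chosen by name, as 6 of the 20009 genes with a count, and each gene's value is the sum of the counts of its transcripts. The annotation lists 62 transcripts of the 6 genes, of which 41 had a count in at least 1 library and 29 had at least 10 counts over all libraries. The study set the transcriptome of the soleus, a slow-twitch muscle, beside that of the TA, a fast-twitch muscle, in wild-type mice. Soleus and TA libraries came from 3 male and 2 female mice each, 10 libraries in all. The tissue is whole muscle, and the labels name neither strain, age nor treatment.

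Troponin sits on the actin filament of the sarcomere and switches contraction on when calcium binds. Troponin C binds the calcium, troponin I holds the filament off at rest, and troponin T ties the complex to tropomyosin. Each subunit has a slow and a fast gene, the slow troponin C gene also serves the heart, and the RNA of troponin T genes is spliced in many combinations of short exons that encode a variable stretch near the amino end of the protein.

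The libraries held 726075 to 961237 counts in soleus and 784233 to 939623 in TA. A library listed 14993 to 22862 transcripts in soleus, the highest number in soleus female 2, and 15013 to 16575 in TA. The 6 genes took 0.484% to 0.778% of the counts in soleus and 1.20% to 1.84% in TA. All 6 slow fiber markers that could be tested were higher in soleus and all 10 fast fiber markers were lower. The summed level of the slow markers was 5948 to 7531 CPM (counts scaled to library size) in soleus and 28.2 to 69.8 CPM in TA, and that of the fast markers was 9108 to 14102 CPM in soleus and 65836 to 95541 CPM in TA. These libraries are bulk tissue, so fewer cells of a type and less RNA per cell cannot be told apart. Of 21 transcripts of the 6 genes with no 31-base run of their own only 3 had a count, so counting seems to rest largely on sequence particular to a transcript. Levels are therefore not compared between genes. The share of the slow gene in a subunit, given below, is read across libraries only.

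The Tnnt3 finding rests on which of 5 short exons a transcript carries. The stretch that holds them lies at chr7:142501829-142508353 on the plus strand of GRCm38, inside the coding sequence. Spliced sequences of 4 coding transcripts that differ in these exons, and on which the exon results turn, are shown from the GENCODE M21 transcripts, 5′ to 3′, with the alternative exons in capitals.
Tnnt3-216: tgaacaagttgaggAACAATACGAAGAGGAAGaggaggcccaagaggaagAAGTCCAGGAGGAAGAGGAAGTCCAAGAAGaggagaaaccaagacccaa
Tnnt3-202: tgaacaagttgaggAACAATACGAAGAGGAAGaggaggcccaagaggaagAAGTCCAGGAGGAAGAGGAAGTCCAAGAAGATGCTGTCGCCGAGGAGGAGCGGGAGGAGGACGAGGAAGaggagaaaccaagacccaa
Tnnt3-211: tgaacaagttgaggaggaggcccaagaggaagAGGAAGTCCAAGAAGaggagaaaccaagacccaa
Tnnt3-201: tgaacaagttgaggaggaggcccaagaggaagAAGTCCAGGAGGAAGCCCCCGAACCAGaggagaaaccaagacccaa
Over the stretch Tnnt3-216 measures 99 bases and carries the 18-base exon and both 15-base exons. Tnnt3-202 measures 138 bases and has the 39-base exon as well. Tnnt3-211 measures 66 bases and keeps only the second 15-base exon. Tnnt3-201 measures 78 bases and joins the first 15-base exon to the 12-base exon. Each of the 5 exons has a length that is a multiple of 3, so its inclusion keeps the reading frame.

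**Figure D1:**
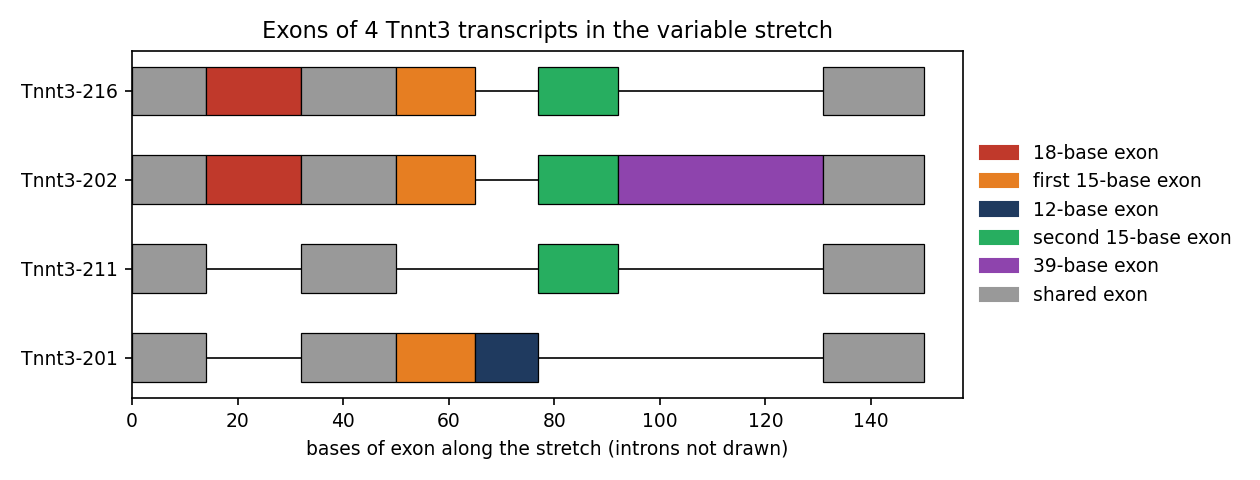
Exons of 4 Tnnt3 transcripts in the variable stretch, drawn to scale in bases of exon with introns left out. Coloured boxes are the 5 alternative exons and grey boxes are the shared ones. Tnnt3-216 and Tnnt3-202 carry the 18-base exon, and Tnnt3-211 and Tnnt3-201 skip it.

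By gene, 5 of the 6 troponin genes passed the test between muscles, against 22.0% of the 5115 genes tested. The 3 slow genes were higher in soleus, against 11.0% of all genes, and 2 of the 3 fast genes, Tnni2 and Tnnc2, were lower in soleus, against 11.0% of all genes. Tnnt3 did not pass. The slow genes met the filter on low counts through soleus alone, so for them passing follows in part from the filter. The muscles did not overlap for these genes, as for 15.1% of the genes tested, 7.29% with all soleus libraries above all TA libraries and 7.76% with all below. Values of single libraries are given below in the order male 1, male 2, male 3, female 1 and female 2. The mice behind the replicate numbers are not described further, so p-values measure the spread between these samples.

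**Figure D2:**
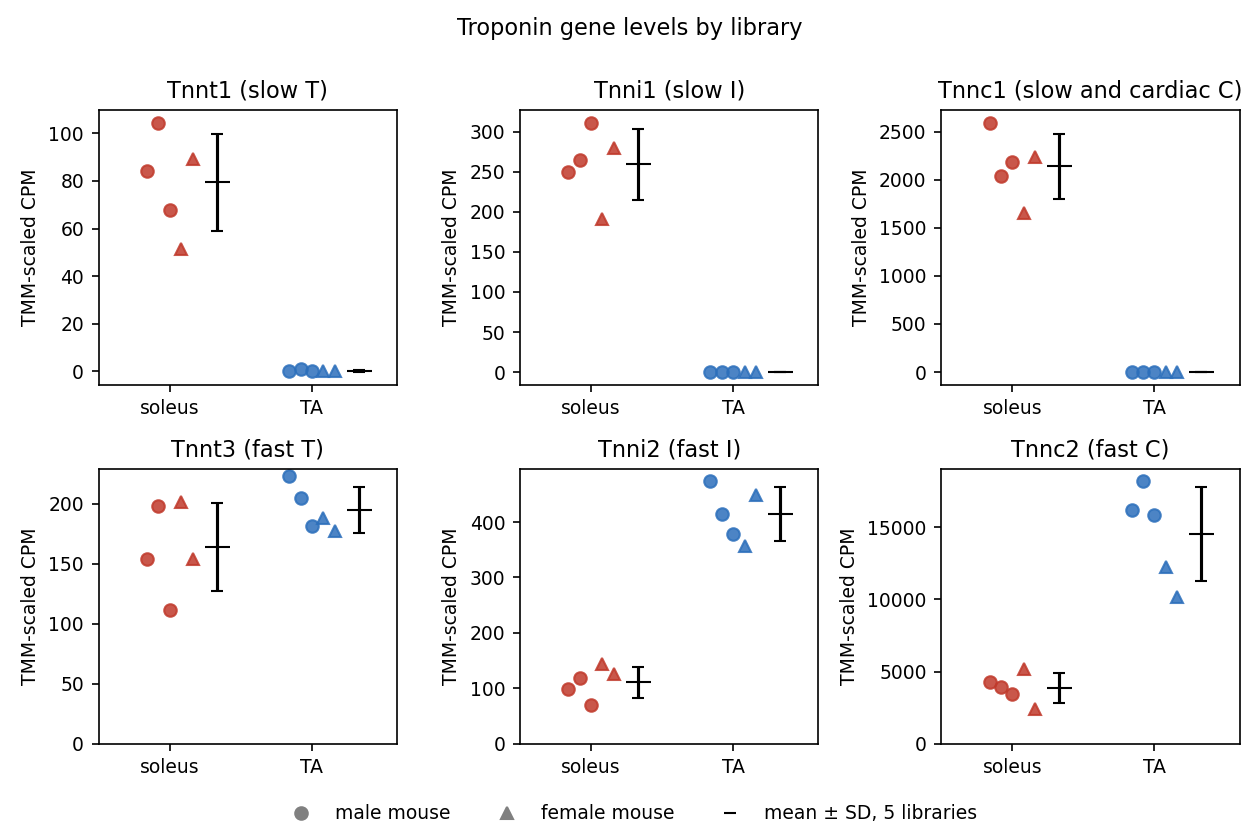
Level of each troponin gene in TMM-scaled CPM, 1 point per library, soleus on the left and TA on the right of each panel, circles for male and triangles for female mice, with the mean ± SD of 5 libraries. The slow genes in the upper row lie at or near 0 in TA. In the lower row soleus lies below TA for Tnni2 and Tnnc2, and the muscles overlap for Tnnt3.

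Tnnt1, the slow troponin T (chr7:4504570-4516382, minus strand), had 72, 78, 55, 39 and 78 counts in soleus libraries, against 0, 1, 0, 0 and 0 in TA libraries. All soleus libraries lay far above all TA libraries, and the lowest of them was soleus female 1. The soleus level was 79.3 ± 20.4 CPM (SD, n = 5). The summed counts of 322 in soleus and 1 in TA, scaled to library size, gave a soleus level 355 times that of TA (95% counting interval 63.3 to 14076). The edgeR log2 fold change was 7.74 (SE 0.46, adjusted p = 2.53e-07), a fitted value that depends on the prior count where TA is at or near 0, as for the other slow genes.

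Tnnt3, the fast troponin T (chr7:142498836-142516009, plus strand), was at 154, 198, 112, 202 and 154 CPM in soleus, against 223, 205, 181, 188 and 177 CPM in TA, from 91 to 153 counts in soleus and 157 to 198 in TA. The means were 164 ± 37.0 CPM in soleus libraries and 195 ± 19.0 CPM in TA libraries (SD, n = 5 each). In CPM the muscles overlapped, with soleus male 2 and soleus female 1 inside the TA range and soleus male 3 the lowest of all. The log2 fold change was -0.25 (SE 0.17, edgeR adjusted p = 0.342), so no difference was detected for the gene as a whole. Between same-numbered libraries the log2 ratio of soleus to TA ran from -0.70 in male 3 to 0.10 in female 1. With coding transcripts alone the log2 fold change was 0.015 (adjusted p = 0.968), since transcripts annotated as retaining an intron held 17 Tnnt3 counts in soleus and 142 in TA.

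Under that sum the Tnnt3 transcripts moved in opposite directions. Of 27 annotated Tnnt3 transcripts 12 had a count and 6 had enough counts for a test. Tnnt3-216 and Tnnt3-202 were higher in soleus, and Tnnt3-211 and Tnnt3-227 were lower. Over the 6 genes, 18 of 41 listed transcripts could be tested, and 10 were higher in soleus, against 12.6% of 5089 transcripts tested, and 6 were lower, against 11.7%. The muscles did not overlap for 16 of the 18, 10 with soleus above and 6 with soleus below, against 7.82% and 8.74% of all transcripts (16.6% together). Transcripts of slow genes and Tnnt3-202 met the filter on low counts through soleus alone, and Tnnt3-211, Tnnt3-227 and Tnni2-204 through TA alone, so for these passing follows in part from the filter. The other 23 listed transcripts fell under it.

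Tnnt3-216, the transcript with the 18-base and both 15-base exons, had 93, 124, 76, 128 and 102 counts in soleus, against 65, 75, 60, 50 and 37 in TA. Every soleus library lay above every TA library, by 1 count at the closest. Its log2 fold change was 1.05 (SE 0.24, adjusted p = 0.00685).

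Tnnt3-211, which lacks the 18-base and the first 15-base exon, had 1, 0, 0, 0 and 0 counts in soleus, against 78, 47, 42, 53 and 68 in TA. It had 288 counts in TA, 1 more than Tnnt3-216, and a single count in soleus. Scaled to library size, the TA sum was 261 times the soleus sum, with a 95% counting interval of 46.5 to 10345, and the fitted log2 fold change of soleus over TA was -7.34 (SE 0.48, adjusted p = 6.97e-07).

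Tnnt3-202, the form with the 39-base exon added, had 14, 7, 7, 9 and 10 counts in soleus, against 2, 1, 1, 2 and 2 in TA. The muscles did not overlap, though the counts are small. The log2 fold change was 2.62 (SE 0.41, adjusted p = 0.000642), and without soleus male 1 the transcript fell under the filter and could not be tested. Tnnt3-201, the form with the 12-base exon, had no count in soleus and 7, 0, 4, 6 and 7 counts in TA. It did not pass the filter on low counts, and with 3 counts over the 5 soleus libraries as the floor it was at least 7.25-fold lower in soleus.

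Tnnt3-227 is annotated as retaining an intron and as having 6 exons, the last of which, at chr7:142505288-142505491, starts at the first base of the 12-base exon and runs on past its end. It had 1, 0, 2, 2 and 1 counts in soleus, against 13, 22, 19, 21 and 31 in TA. The muscles did not overlap, and the log2 fold change was -3.84 (SE 0.43, adjusted p = 3.57e-05). Both transcripts that use the start of the 12-base exon and had counts above 10, Tnnt3-201 and Tnnt3-227, were thus counted mainly in TA.

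Whether a transcript differed beyond its gene was tested over 501 transcripts of 227 genes, of which 6.99% passed. Of 17 troponin transcripts in that test, 4 passed, and all 4 were Tnnt3 transcripts. Relative to the gene, Tnnt3-216 was higher in soleus by 1.24 on the log2 scale (SE 0.23, adjusted p = 4.90e-05) and Tnnt3-202 by 2.81 (SE 0.51, adjusted p = 4.90e-05), against 3.99% of transcripts higher. Tnnt3-211 (-7.15, SE 0.52, adjusted p = 3.39e-16) and Tnnt3-227 (-3.65, SE 0.48, adjusted p = 5.05e-08) were lower, against 2.99% of transcripts lower. The 8 tested transcripts of slow genes had almost no count in TA, and their values in this test carry no information.

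Tnnt3-220, a coding transcript of 342 bases, and Tnnt3-221, annotated as retaining an intron near the 3′ end, did not pass either test. Both met the filter on low counts through TA alone, so their passes in some repeats follow in part from the filter. Tnnt3-220 had 10, 5, 2, 4 and 5 counts in soleus, against 14, 13, 7, 15 and 13 in TA (log2 fold change -1.08, SE 0.39, adjusted p = 0.0642). With the replicate number within a sex as a block it passed (-1.12, adjusted p = 0.0358). It also passed without soleus male 1 (-1.44, adjusted p = 0.0262) and without TA male 3 (-1.24, adjusted p = 0.0460). Tnnt3-221 differed by -1.59 (SE 0.65, adjusted p = 0.0973), and passed without soleus female 2 (-2.06, adjusted p = 0.0404), as it did in transcript use (-1.91, adjusted p = 0.0493). Tnnt3-217 summed to 27 counts in soleus and 18 in TA, Tnnt3-222 to 16 and 30, and Tnnt3-219 to 2 and 10.

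As shares of all Tnnt3 counts of a library, Tnnt3-216 made up 79.4 ± 6.11% in soleus and 33.1 ± 8.11% in TA (SD over 5 libraries each). The soleus values were 70.5%, 83.8%, 83.5%, 83.7% and 75.6%, against 32.8%, 42.4%, 38.2%, 30.9% and 21.0% in TA. Tnnt3-216 was the leading transcript in all 5 soleus libraries. In TA it shared that place with Tnnt3-211, which took 0.152 ± 0.339% in soleus and 32.8 ± 6.19% in TA. Tnnt3-202 took 7.26 ± 2.22% in soleus and 0.917 ± 0.300% in TA. Tnnt3-227 took 1.00 ± 0.815% in soleus and 12.3 ± 3.92% in TA.

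**Figure D3:**
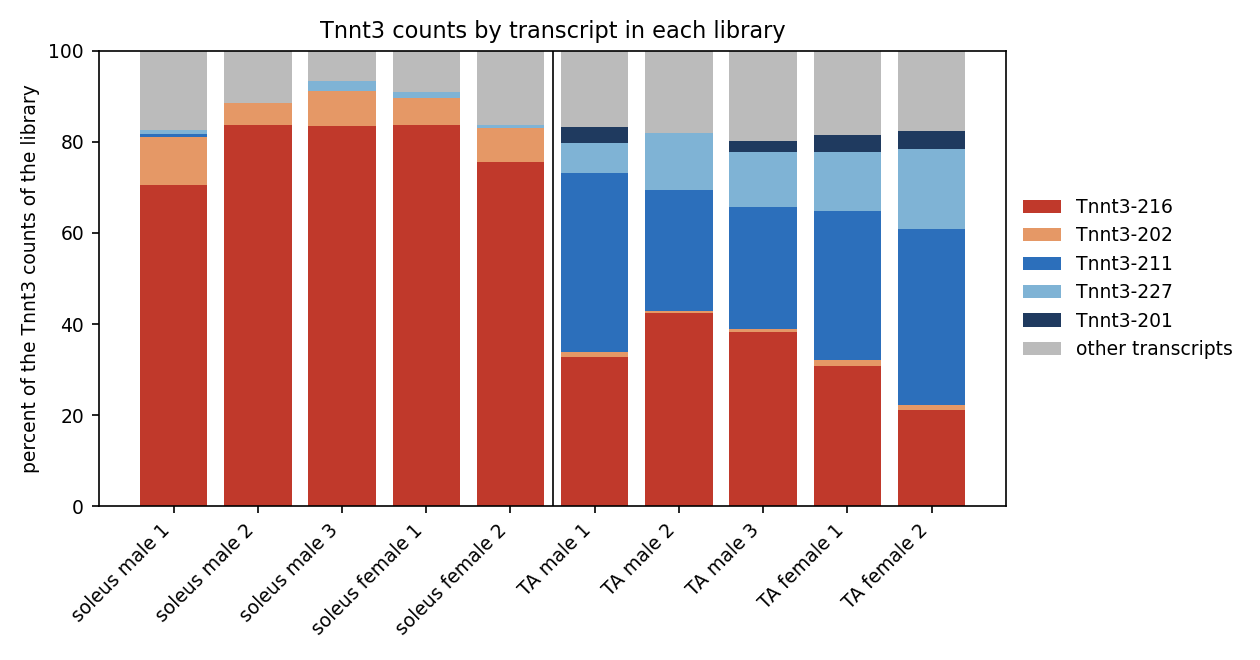
Percent of the Tnnt3 counts of each library that fell on each transcript, 5 soleus libraries left of the line and 5 TA libraries right of it, with the remaining transcripts in grey. Tnnt3-216 fills 70.5% to 83.8% of the soleus bars and 21.0% to 42.4% of the TA bars, where Tnnt3-211 fills 26.6% to 39.4%.

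Read by exon, 21 annotated Tnnt3 transcripts span the variable stretch, 8 of them had a count, and they held 1325 of the 1529 Tnnt3 counts. The 18-base exon (chr7:142502740-142502757) was on 99.2% of these counts in soleus male 1 and on 100% in the other 4 soleus libraries, against 51.1%, 66.9%, 62.9%, 55.3% and 45.7% in TA. Soleus counts thus fell almost only on transcripts annotated with this exon, and TA libraries ranged widely. Tnnt3-216 held 523 of these 614 soleus counts, and its own 31-base runs do not reach the exon. The exon itself was therefore not measured in those counts. The mean was 99.8 ± 0.370% in soleus and 56.4 ± 8.61% in TA, a difference of 43.5 points. The 95% Wilson intervals of single libraries reached down to 95.5% in soleus and up to 74.1% in TA.

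The first 15-base exon (chr7:142504250-142504264) was on 88.4%, 94.2%, 95.4%, 95.1% and 90.3% of these counts in soleus, against 42.5%, 53.5%, 53.2%, 43.9% and 33.3% in TA. The muscles did not overlap, and the means of 92.7 ± 3.14% in soleus and 45.3 ± 8.41% in TA differed by 47.4 points. TA female 2 was the lowest library for both this exon and the 18-base exon.

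The other exons differed less. The second 15-base exon (chr7:142505516-142505530) was on 93.2 ± 2.59% of the counts in soleus and on 83.4 ± 4.17% in TA, and soleus male 1, at 89.3%, lay within the TA range, just under TA male 2 at 89.4%. The 39-base exon (chr7:142507750-142507788) was on 8.12 ± 2.61% in soleus and on 2.53 ± 0.751% in TA, without overlap. The 12-base exon (chr7:142505288-142505299) was on 0 of 615 counts in soleus, which allows a share of up to 0.488%, and on 25 of 710 counts in TA, where TA male 2 had none and the other libraries had 4.02% to 5.07%. These exon shares are shares of counts on transcripts and are given as a description, without a test.

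**Figure D4:**
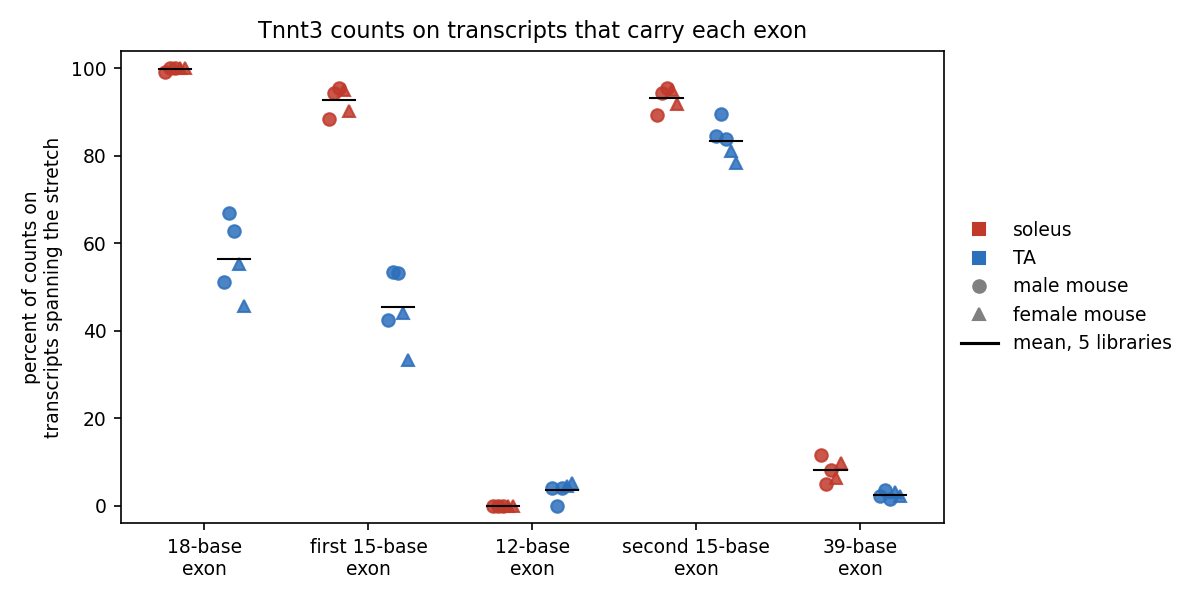
Percent of the counts on transcripts spanning the variable stretch that fell on transcripts carrying each of the 5 alternative Tnnt3 exons, 1 point per library, soleus left of TA, circles for male and triangles for female mice, bars at the mean of 5 libraries. The 18-base and the first 15-base exon separate the muscles by 43.5 and 47.4 points.

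How the counts were assigned bears on these shares. Of the 27 Tnnt3 transcripts 18 hold no run of 31 bases that is absent from the other transcripts, and 3 of these had a count: Tnnt3-201, Tnnt3-202 and Tnnt3-224. How reads were given to them is not stated in the sources used here, and the call on Tnnt3-202, 47 of the 49 soleus counts with the 39-base exon and all 25 TA counts with the 12-base exon rest on them. Tnnt3-216 and Tnnt3-211 hold 7 such runs each. Those of Tnnt3-216 cover bases 151 to 187 of the transcript, from the first 15-base exon across the second into the next shared exon. Those of Tnnt3-211 cover bases 70 to 106, from 1 shared exon across the next into the second 15-base exon, the junction formed where the 18-base and the first 15-base exons are skipped. The runs of Tnnt3-216 do not reach the 18-base exon, so its share for that exon follows from the annotated structure of the transcript and not from runs over the exon.

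Near the 3′ end Tnnt3 has a pair of 41-base exons. No annotated transcript carries both, and some carry neither. The downstream exon (chr7:142514326-142514366) is on 14 transcripts, which held 598 counts in soleus and 625 in TA. The upstream exon (chr7:142513665-142513705) is on 7 transcripts, none with a 31-base run of its own, which held no count in soleus and 1 in TA. Its use therefore could not be measured from these counts.

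Among the Tnnt1 transcripts, which were counted almost only in soleus, 3 coding forms differ over the stretch at chr7:4510317-4513837 on the minus strand. Their spliced sequences from the GENCODE M21 transcripts are shown 5′ to 3′, because the forms differ in short runs of bases there. Capitals mark a 33-base exon and 3 bases from a longer form of the next exon.
Tnnt1-203: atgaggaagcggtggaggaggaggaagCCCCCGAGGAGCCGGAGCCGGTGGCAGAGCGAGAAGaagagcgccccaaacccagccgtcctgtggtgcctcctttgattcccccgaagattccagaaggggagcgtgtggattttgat
Tnnt1-206: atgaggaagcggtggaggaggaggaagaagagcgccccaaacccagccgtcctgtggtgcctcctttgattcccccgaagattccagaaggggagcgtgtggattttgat
Tnnt1-209: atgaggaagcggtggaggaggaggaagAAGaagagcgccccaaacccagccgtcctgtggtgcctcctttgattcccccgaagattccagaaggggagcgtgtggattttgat
Tnnt1-206, which lacks both, took 38.0 ± 9.40% of the Tnnt1 counts in soleus (SD, n = 5). Tnnt1-209, with the 3 bases alone, took 25.8 ± 4.88%. Tnnt1-203, with the 33-base exon and the 3 bases, took 14.3 ± 6.89%. The 31-base runs that only Tnnt1-203 holds cover its bases 1 to 59, at the 5′ start, and do not reach the 33-base exon. Its share for that exon thus follows from the annotated structure. Such runs cover bases 88 to 139 of Tnnt1-206 and 90 to 143 of Tnnt1-209. All 3 were higher in soleus, with adjusted p of 9.41e-05 for Tnnt1-206, 0.000195 for Tnnt1-209 and 0.00283 for Tnnt1-203, and none had a count in TA. Without soleus male 2, Tnnt1-203 fell under the filter and could not be tested. Tnnt1-211, annotated as retaining an intron, had 39 counts in soleus and none in TA.

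Tnni1, the slow troponin I (chr1:135779434-135810989, plus strand), had 213, 198, 253, 145 and 245 counts in soleus and no count in any TA library. The soleus level was 259 ± 44.4 CPM (SD, n = 5), lowest in soleus female 1. With 3 counts over the 5 TA libraries as the floor, Tnni1 was at least 388-fold higher in soleus (edgeR adjusted p = 4.32e-07), and the stricter 2-sided 95% counting interval started at 315-fold. Tnni1-201 took 53.8 ± 7.45% of its soleus counts and Tnni1-207 took 38.4 ± 8.52%. Those coding transcripts start at different first exons, at chr1:135805057-135805094 for Tnni1-201 and at chr1:135799402-135799496 for Tnni1-207. Their last exons differ as well, at chr1:135809626-135809909 for Tnni1-201 and at chr1:135810613-135810989 for Tnni1-207. The 31-base runs that only Tnni1-201 holds cover its bases 520 to 721, at the 3′ end, and those of Tnni1-207 cover bases 1 to 49. Tnni1-201, Tnni1-205 and Tnni1-207 each passed the test and had no count in TA.

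Tnni2, the fast troponin I (chr7:142441808-142444410, plus strand), had 84, 88, 57, 109 and 110 counts in soleus, against 421, 358, 327, 307 and 446 in TA. Every soleus library lay below every TA library, and soleus male 3 was the lowest. The levels were 111 ± 28.1 CPM in soleus and 415 ± 48.5 CPM in TA (SD over 5 libraries each), a 3.78-fold lower level in soleus (log2 fold change -1.92, SE 0.18, adjusted p = 9.69e-06). Between same-numbered libraries the log2 ratio of soleus to TA was -2.27, -1.82 and -2.43 in males and -1.31 and -1.84 in females.

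All 3 tested Tnni2 transcripts were lower in soleus. Tnni2-201, the main coding form, differed by -2.06 (SE 0.18, adjusted p = 5.04e-06). Tnni2-206, a coding form that starts at another first exon, at chr7:142442330-142442498, differed by -1.38 (SE 0.30, adjusted p = 0.00538). Tnni2-204, annotated as retaining an intron, differed by -1.45 (SE 0.33, adjusted p = 0.00663).

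The makeup of Tnni2 shifted little beside that of Tnnt3. Tnni2-201 took 69.0 ± 7.23% of the counts in soleus and 77.2 ± 5.15% in TA, and Tnni2-206 took 19.4 ± 6.28% in soleus and 13.6 ± 4.06% in TA, both with overlap. None of the 3 transcripts differed beyond the gene, with adjusted p of 1.00 for Tnni2-201, 0.422 for Tnni2-206 and 0.825 for Tnni2-204.

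Tnnc1, the troponin C of slow muscle and heart (chr14:31208312-31211729, plus strand), had 2218, 1522, 1776, 1259 and 1963 counts in soleus, against 0, 0, 1, 3 and 0 in TA. The soleus level was 2143 ± 339 CPM (SD, n = 5), lowest in soleus female 1. The sums of 8738 counts in soleus and 4 in TA came to a 2410-fold higher level in soleus after scaling (95% counting interval 941 to 8848, edgeR adjusted p = 6.74e-09). Genes that mark heart muscle were at or near 0, with 0 counts in soleus and 1 in TA for the atrial peptide gene Nppa, none for Myl7 and Tnni3, and 3 counts in soleus and 0 in TA for Tnnt2, while the myosin gene Myh6 had 157 in soleus and 1 in TA.

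Tnnc1-202, the coding transcript, held 97.8 ± 0.488% of the Tnnc1 counts in soleus. Tnnc1-203, annotated as subject to nonsense-mediated decay, held 1.69 ± 0.514% and passed the test (adjusted p = 2.19e-05). Tnnc1-201, annotated as retaining an intron, had 6, 5, 5, 3 and 30 counts in soleus. The 30 counts were in soleus female 2, the library that also listed the most transcripts, and the part of that library in the value was not tested.

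Tnnc2, the fast troponin C (chr2:164777161-164779967, minus strand), had 3629, 2946, 2810, 3941 and 2117 counts in soleus, against 14360, 15734, 13715, 10540 and 10140 in TA. All soleus libraries lay below all TA libraries, and the TA males lay above the TA females. The levels were 3850 ± 1022 CPM in soleus and 14547 ± 3243 CPM in TA (SD over 5 libraries each), a 3.71-fold lower level in soleus (log2 fold change -1.89, SE 0.21, adjusted p = 3.31e-05). A single coding transcript, Tnnc2-201, held 15437 of its 15443 counts in soleus and 64478 of its 64489 counts in TA. Between same-numbered libraries the log2 ratio of soleus to TA was -1.93, -2.21 and -2.20 in males and -1.24 and -2.08 in females.

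Fast genes were counted in every soleus library, while slow genes were nearly without counts in TA. Counts of the slow gene as a share of both genes of a subunit were 35.3%, 34.5%, 37.7%, 20.3% and 36.6% for troponin T in soleus, and at most 0.562% in TA. They were 71.7%, 69.2%, 81.6%, 57.1% and 69.0% for troponin I in soleus, and 0% in TA. For troponin C they were 37.9%, 34.1%, 38.7%, 24.2% and 48.1% in soleus, and at most 0.0285% in TA. Soleus female 1 had the lowest share for all 3 subunits, and its 95% Wilson interval for troponin T was 15.2% to 26.6%, from 39 of 192 counts. The share follows the counting of each gene's transcripts, so its size is read across libraries and not as a share of protein or of fibers.

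**Figure D5:**
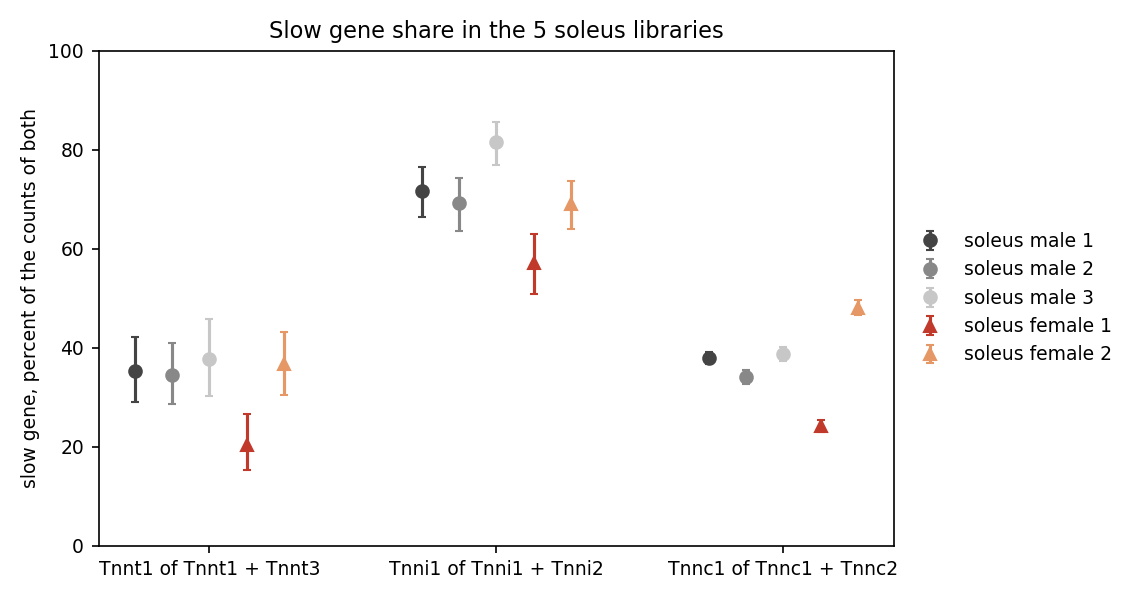
Counts of the slow gene as a percent of the counts of the slow and fast gene of each subunit in the 5 soleus libraries, with 95% Wilson intervals that cover counting error only. Soleus female 1 lies lowest for troponin T at 20.3%, for troponin I at 57.1% and for troponin C at 24.2%.

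Sex was the other label of the study, with 3 male and 2 female mice per muscle. None of the 6 genes passed the test of male against female in soleus, where 0.547% of genes did. In TA, where 0.645% of genes passed, none of the 3 fast genes did. The slow genes Tnnt1, Tnni1 and Tnnc1 had 1, 0 and 4 counts over the TA libraries, so for them the test in TA carries no information. No unadjusted p was under 0.05 for the 6 genes in soleus or the 3 fast genes in TA. The lowest adjusted p was that of Tnni2 in soleus (0.332), where the level was 95.4 CPM in males and 135 CPM in females, and that of Tnnc2 in TA (0.442), where it was 16757 CPM in males and 11231 CPM in females. Without soleus female 1, which leaves a single soleus female, Tnnc2 passed in soleus (0.78, adjusted p = 0.0354).

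The difference between muscles was -2.11 in males and -1.56 in females for Tnnc2 (log2) and -2.15 in males and -1.58 in females for Tnni2. The interaction of muscle and sex was -0.55 for Tnnc2 (adjusted p = 0.779) and -0.57 for Tnni2 (adjusted p = 0.752). In that comparison 0 of all genes passed by the edgeR quasi-likelihood test and 351 had an unadjusted p under 0.05. DESeq2 size factors in the same test also gave 0, and no other tool was run on it.

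The rest of the thin filament was read from a list of 17 genes, of which 14 were tested, 6 were higher and 4 lower in soleus, against 11.0% of all genes tested in each direction, with a median log2 fold change of 0.28 against 0.01 over all genes tested. Tpm3, the slow tropomyosin that troponin T binds, was higher by 9.23 (SE 0.36, adjusted p = 6.74e-09), with 8986 counts in soleus and 16 in TA. Lmod2, a leiomodin that lengthens actin filaments, was higher by 3.16 (SE 0.28, adjusted p = 5.39e-06). Tmod1, which caps the pointed end, fell by 1.73 (SE 0.17, adjusted p = 1.08e-05), and Tpm1, the fast tropomyosin alpha chain, fell by 2.06 (SE 0.26, adjusted p = 0.000126).

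The cardiac troponin genes Tnnt2 and Tnni3 were not tested, with 3 counts or fewer over all libraries. Acta1, the skeletal actin, differed by 0.20 (SE 0.16, adjusted p = 0.418).

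Splicing factors known from work on sarcomere or troponin T exons formed a list of 14 genes, of which 7 were tested, 1 was higher and 2 were lower in soleus, against 11.0% of all genes tested in each direction, with a median of -0.16. Rbfox1, which binds introns next to muscle exons, fell by 1.77 on the log2 scale (SE 0.19, adjusted p = 3.11e-05), with 195 counts in soleus and 736 in TA. Mbnl1, known for the switch to adult troponin T exons, fell by 0.81 (SE 0.20, adjusted p = 0.0118). Qk was higher by 0.56 (SE 0.16, adjusted p = 0.0274). Celf2 (-0.97, SE 0.35, adjusted p = 0.0640), Mbnl3 (1.32, SE 0.48, adjusted p = 0.0716) and Mbnl2 (0.74, SE 0.36, adjusted p = 0.164) did not pass. Their part in the Tnnt3 exon shares was not tested.

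Some marker genes of other cell types also differed between the muscles. The endothelial genes Kdr and Cdh5 were both lower in soleus, Pecam1 had 20 counts in soleus and 19 in TA and was not tested, and the 3 endothelial markers summed to 175 to 260 CPM in soleus and 237 to 794 CPM in TA. The tendon gene Comp and the adipocyte gene Adipoq were higher in soleus, as 1 of 3 tested tendon markers and the single tested adipocyte marker. Of 3 markers of developing or regenerating fibers, 2 were tested and 1 was lower in soleus. Myh8 fell by 1.85 (SE 0.32, edgeR adjusted p = 0.00145), with 1005 counts in soleus and 3627 in TA. Myog had 109 counts in soleus and 92 in TA and did not pass (0.82, SE 0.55, edgeR adjusted p = 0.335). Myh3 had 2 counts in each muscle and was not tested. Fibro-adipogenic and erythroid markers held no called gene among 2 and 3 tested. The part of these cells in the troponin values was not tested.

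Genes whose levels ran most like a member over the 10 libraries were ranked by Pearson r of log2 CPM. Pseudogenes and gene models with Gm or Rik names were left out. The ranking is a description in which the 2 muscles set most of the likeness. For Tnni1 the most alike were Myl2, Myh7 and Atp2a2 (r = 0.997 to 0.998), and for Tnnc1 they were Atp2a2, Tpm3 and Tnni1 (0.996 to 0.998). For Tnnt1 they were Tnni1 (0.995), Myl2 (0.994) and Lpl (0.992). For Tnnc2 they were Prkca (0.997), Myoz3 (0.994) and Ky (0.979), and for Tnni2 they were Eno3 (0.987), Phkg1 (0.981) and Gpd1 (0.979). Tnnt3, which did not separate the muscles as a gene, had lower values with Tsc22d3 (0.945), Vps41 (0.901) and Dennd4c (0.899).

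The troponin I and T genes lie near each other in the genome, while Tnnc1 and Tnnc2 lie on other chromosomes. Tnni2 ends 54425 bases before Tnnt3 begins on chromosome 7, with Lsp1 between them. Tnni2 fell in soleus and Tnnt3 as a gene did not pass, so these neighbours did not share a call. Tnnt1 lies 1922 bases from the cardiac gene Tnni3, which had no count, and Tnni1 lies 25364 bases from the cardiac gene Tnnt2, which had 3 counts in soleus and 0 in TA.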

How the data were processed

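Each deposited file holds whole-number read counts by Ensembl transcript for 1 library, as deposited by the authors, and leaves out transcripts without a read. Per the labels' protocols, total RNA was prepared with a stranded kit. The submitters' processing notes name bcl2fastq, Trimmomatic 0.32, FastQC and the build GRCm38.p4. Aligner, counter and use of strand: not given in the sources used here.

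Transcripts were matched to GENCODE M21 by identifier (40359 matched, and 55 did not and were left out) and summed to genes. Low counts were filtered by filterByExpr over the 4 muscle and sex groups, and the rest was scaled by TMM and tested with the edgeR 4.0.16 quasi-likelihood test, with limma 3.58.1 beneath it, in R 4.3.3, with sex as a covariate, soleus over TA, at a Benjamini-Hochberg adjusted p under 0.05 over all genes or transcripts tested. Transcript use was tested with edgeR's diffSpliceDGE, each transcript's fold change minus that of its gene. Sex and interaction came from a fit of 4 group means. SE is the log2 fold change over the square root of F. Alternatives were DESeq2 1.42.0, other scalings, filters, library sizes and transcript sets, a replicate block and leaving out each library. Shares, runs of 31 bases and intervals (95%) were computed in Python 3.11.15 with pandas 2.3.3, numpy 2.4.6 and scipy 1.17.1, and figures with matplotlib 3.10.9. Floors use 3 counts. There are no molecular identifiers, so intervals and floors cover only the error of counting. The test script was tested on simulated data.

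Soleus and TA share replicate numbers within a sex in the titles. Deviations from group means correlated at 0.183 to 0.239 between same-numbered male samples and at 0.285 between female ones, which with 2 mice have mirrored deviations. Every other pairing was below 0. Deviations within a group sum to 0, so in males too the other pairings tend below 0 once same-numbered ones lie above it. The signs of the other pairings are therefore no separate support. From the same-numbered values the numbers were taken to mark mice, though no label states that same-numbered libraries share a mouse. The blocked value is given where it changed a call.

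The 6 genes and all lists were chosen with earlier results of these data known. Named outside the members are, per list, up to 4 genes with the smallest p, the defining markers, and the 3 genes most like each member. Acta1, Mbnl2, Mbnl3, Kdr, Cdh5, Adipoq, Comp, Myh6, Myh8, Myh3 and Myog were named after their values were seen.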

Additional observations from a re-analysis of the deposited data

Results flagged for a closer look

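In 74 groups of 5 library values for the members, 10 held a library far from the other 4 by Dixon's criterion. The criterion is set at about 1 in 20 for independent groups. Groups here share counts and some rest on few, so the number flagged cannot be set against chance. Soleus female 2 stood high for Tnnc1-201, at 34.3 CPM against 3.95 to 7.02 CPM in the other soleus libraries, and for the share of Tnnt3-222, at 3.70% against 1.96% to 2.27%. Soleus female 1 stood low for the slow share of troponin T, at 20.3% against 34.5% to 37.7%. Soleus male 3 stood low for Tnni2-201, at 49.2 CPM against 79.0 to 90.9 CPM, and for Tnnt3-217, at 2.46 CPM against 7.02 to 8.03 CPM.

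Soleus male 1 stood low for the 18-base Tnnt3 exon, at 99.2% against 100% in the other 4, a gap made by 1 count, and high for the share of Tnnt3-220, at 7.58% against 2.20% to 3.70%. In TA, TA male 2 stood low for the 12-base Tnnt3 exon, at 0% against 4.02% to 5.07%. TA male 1 stood high for Tnnc2-202, at 5.64 CPM against 1.01 to 2.32 CPM, and TA female 1 stood high for the share of Tnnt3-217, at 4.32% against 1.13% to 2.02%.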

How the results depend on the processing

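The 25 calls on members between the muscles (5 genes, 16 transcripts and 4 transcripts in use) kept their direction and passed in the 439 repeats in which they could be tested, leave-one-out included. Tnnt3-202 fell under the filter on low counts without soleus male 1, in level and in use, and Tnnt1-203 did so without soleus male 2. Retained-intron and decay transcripts were outside the repeat with protein-coding transcripts only, and transcript use was not run in DESeq2. Leaving out 1 library, the log2 fold change ran from -2.18 to -1.76 for Tnnc2, from -2.05 to -1.78 for Tnni2, from -0.39 to -0.13 for Tnnt3, from 0.85 to 1.19 for Tnnt3-216 and from -8.77 to -7.10 for Tnnt3-211. With the replicate block 1207 genes, 1306 transcripts and 42 transcripts in use passed, and of the members' calls only that of Tnnt3-220 changed (-1.12, adjusted p = 0.0358). Tnnt3 as a gene turned to 0.015 with protein-coding transcripts only, and the TA share of Tnnt3-211 then came to 39.7% in place of 32.8%.

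Over all genes, leave-one-out gave 892 to 1353 genes between muscles, 979 to 1528 transcripts and 26 to 57 transcripts in use, the last without soleus female 1. Counts for sex were unstable. They ran from 1 to 1022 in soleus, from 1 to 162 in TA and from 0 to 79 for the interaction, in each case highest without soleus female 1, where 1 soleus female remained and was assumed to vary like the other groups. With no filter on low counts they were 449 in soleus, 240 in TA and 58 for the interaction, and the cause was not tested. Leaving out 1 library moved the sex difference in soleus of Tnnc2 between -0.43 (without soleus female 2) and 0.78 (without soleus female 1, the only one of these to pass), and it was -0.040 without soleus male 1. For Tnnt3 in soleus it ran from -0.42 to 0.10, above 0 without soleus female 1. For Tnni2 in TA it ran from -0.080 (without TA female 1) to 0.27, with -0.011 without TA male 1. The Tnnc2 interaction ran from -1.02 to 0.18, above 0 without soleus female 1.

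The limits are depth and assignment. Tnnt3 had 91 to 198 counts in a library, so transcripts with few counts per library could not be tested. Transcripts without sequence of their own were mostly without counts, so shares describe counts and not molecules.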
